A study of Mus musculus with 9 samples.

Results

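Matricellular proteins are secreted into the extracellular matrix, where they bind collagens, growth factors and cell surface receptors and tune how cells sense the matrix, rather than bearing load themselves. The genes described here are Thbs1, Thbs2 and Thbs3 (thrombospondins), Tnc (tenascin C), Postn (periostin), Sparc (SPARC, or osteonectin), Ccn1 (CYR61) and Ccn2 (CTGF). They were chosen by symbol, as the rows of the count tables whose Ensembl ID carries these names in the GENCODE M21 annotation of GRCm38, and all 8 of the 8 were found among 53379 gene IDs. All 8 were also among the 17478 genes with enough counts to be tested.

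RNA was measured by sequencing in whole knee joints of mice. In the Non surgery group the joints were not operated on. In the Luc group, male C57BL/6 mice had the anterior cruciate ligament cut (ACLT, a surgical model of osteoarthritis) at 8 weeks of age, and a lentivirus expressing Luc, the control virus, was put into the joint 1 week later. In the PC2 group the lentivirus given after the same operation expressed PC2. Joints of both operated groups were collected 8 weeks after the virus. The sources used here do not give the age of the Non surgery mice, whether they received a virus, the number of mice per group or the cells that took up virus. RNA of a group was mixed before 3 technical repeats were sequenced, so each group is 1 pool, the p-values below measure technical spread only, and a difference between groups cannot be told apart from a difference between pools.

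The 9 libraries held 17835989 to 19004316 counts in genes. On principal components of log2 CPM (counts scaled to a common TMM-adjusted library size), Non surgery lay apart from both operated groups along the first axis (71.7% of variance) and Luc from PC2 along the second (14.8%), with the libraries of each group close together. The groups are called by their labels throughout. The sources used here do not say which PC2 sequence the virus carried. Libraries of operated joints also differed from Non surgery in tissue markers, each list fixed by name. The 8 fast skeletal muscle markers summed to 50316 to 52392 CPM in Non surgery libraries, 22808 to 23232 in Luc libraries and 26469 to 26573 in PC2. The 8 fibroblast markers summed to 9214 to 10145, 36227 to 37120 and 41074 to 41542 CPM in the same order, and the 8 chondrocyte markers to 574 to 622, 3423 to 3545 and 5922 to 5971 CPM. No marker of these lists was at 0 in any group. In bulk tissue, fewer cells of a type and less RNA per cell cannot be told apart.

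The 8 genes together took 0.264% to 0.275% of gene counts in Non surgery, 0.924% to 0.935% in Luc and 1.05% to 1.06% in PC2 libraries, most of it from Sparc. Between Luc and Non surgery, 7 of them were higher (31.1% of all genes tested were) and Thbs1 was lower (27.7% of all genes were). Between PC2 and Luc, Thbs1, Thbs2, Tnc, Postn and Ccn1 were lower (18.6% of all genes), Sparc and Thbs3 were higher (16.1%), and Ccn2 did not pass the test. Libraries of different groups did not overlap in any of the 8 genes, which is common in these technical repeats: 33.1% of all genes lay higher and 29.8% lower in all Luc than in all Non surgery libraries. The shares were 23.3% higher and 24.7% lower for PC2 against Luc, and 33.5% higher and 32.5% lower for PC2 against Non surgery. The plot of CPM by library shows these patterns, and the genes are taken in turn below, by what their proteins do.

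**Figure D1:**
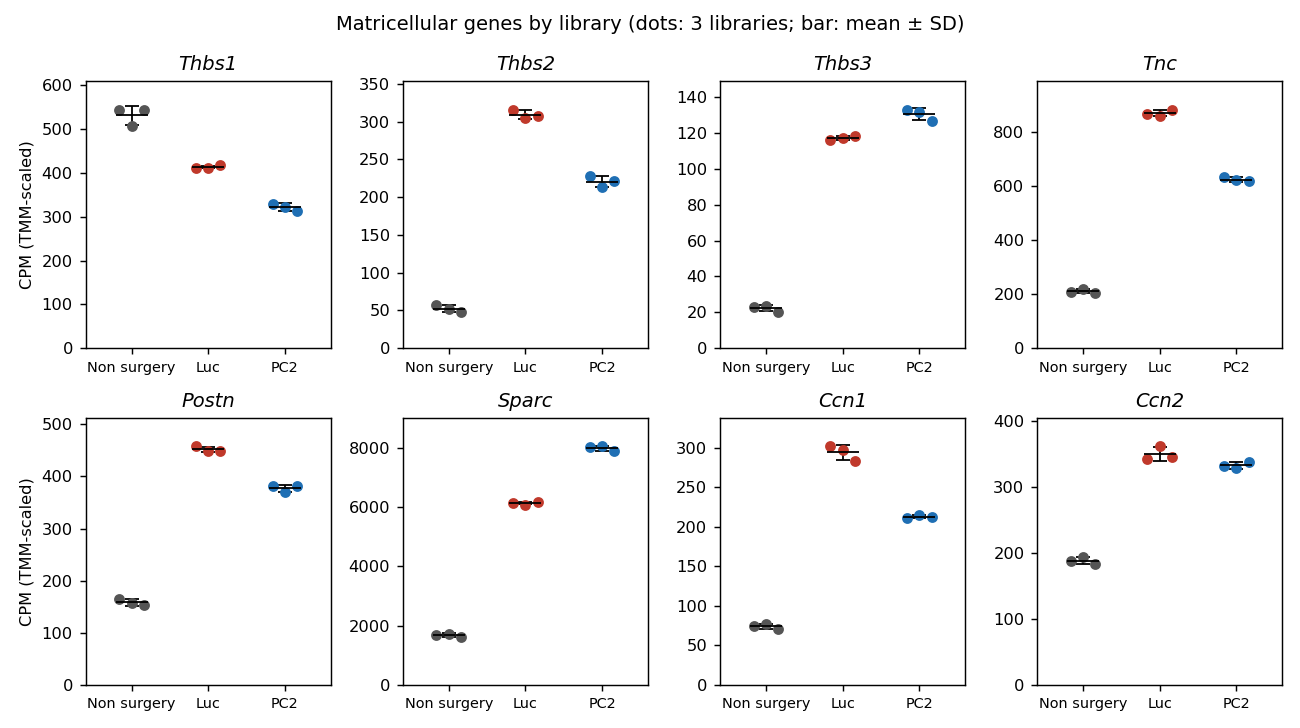
CPM of each of the 8 genes in the 9 libraries, by group. Dots are single libraries, bars the mean ± SD of 3, and each y axis starts at 0. Thbs1 steps down from Non surgery to PC2, Sparc and Thbs3 are highest in PC2, and Thbs2, Tnc, Postn and Ccn1 are highest in Luc.

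SPARC is a collagen-binding, calcium-binding glycoprotein that bone and connective tissue make in quantity, and it was the most abundant of the 8. Sparc stood at 1695, 1728 and 1609 CPM in Non surgery, 6160, 6096 and 6187 CPM in Luc and 8043, 8062 and 7907 CPM in PC2 libraries. The 3 groups did not overlap, and PC2 was the highest. Sparc was 3.66-fold higher in Luc than in Non surgery (log2 fold change 1.87 ± 0.023 (SE), edgeR adjusted p = 8.66e-19). It was a further 1.3-fold higher in PC2 than in Luc (0.38 ± 0.022, adjusted p = 2.15e-09). The summed levels of the fibroblast, chondrocyte and osteoblast markers were also highest in PC2 (osteoblast list, 8 genes: 631 to 663 CPM in Non surgery, 1996 to 2038 in Luc, 2072 to 2094 in PC2). Between Luc and PC2 all 8 chondrocyte markers rose, but single markers of the others went both ways: 4 rose and 3 fell among the fibroblast markers, and 5 rose and 2 (Dmp1 and Phex) fell among the osteoblast markers. Their part in the result was not tested.

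Thrombospondin 1 is a trimeric glycoprotein that platelets store and release, that inhibits blood vessel growth through CD36 and can activate latent TGF-beta. Thbs1 stood at 543.1, 507.2 and 544.8 CPM in Non surgery, 412.3, 411.7 and 417.6 CPM in Luc and 330.2, 323.2 and 313.6 CPM in PC2 libraries. It was the only one of the 8 with its highest level in Non surgery, and the groups did not overlap. From Non surgery to Luc it fell by 0.36 ± 0.035 on the log2 scale (adjusted p = 1.2e-07), a value that was -0.20 (adjusted p = 8.51e-05) when libraries were scaled by total count alone. From Luc to PC2 it fell by 0.36 ± 0.035 as well (adjusted p = 7.07e-07).

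Markers of megakaryocytes and platelets, cells known to hold Thbs1, were also lower in the operated groups. All 8 of the 8 fell between Non surgery and Luc, and their sum went from 1224 to 1272 CPM in Non surgery to 415 to 429 CPM in Luc. In PC2 the sum was 417 to 419 CPM, inside the Luc range, while Thbs1 was lower than in Luc. Single markers differed between Luc and PC2: 3 rose (Gp1bb, Treml1 and Pf4), 2 fell (Gp1ba and Itga2b) and 3 did not pass, and Ppbp, at 181.4 and 183.6 CPM, carried the most of the sum. None of these markers was at 0 in any group, and their part in the level of Thbs1 was not tested.

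Thrombospondin 2 is the other trimeric member, known for its role in collagen fibril assembly and, like thrombospondin 1, as an inhibitor of vessel growth. Thbs2 stood at 56.65, 51.7 and 48.24 CPM in Non surgery, 315.7, 304.4 and 307 CPM in Luc and 227.5, 213 and 220.7 CPM in PC2 libraries. Its Luc libraries were the highest and the groups did not overlap. With 5.92-fold (log2 fold change 2.57 ± 0.05 (SE), adjusted p = 1.25e-16) it showed the largest difference of the 8 between Luc and Non surgery. It was 1.4-fold lower in PC2 than in Luc (-0.49 ± 0.046, adjusted p = 4.81e-07), which left it 4.22-fold above Non surgery.

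Thrombospondin 3 belongs with Thbs4 and COMP to the pentameric branch of the family and is expressed in cartilage and bone. Thbs3 stood at 23.02, 23.23 and 20.31 CPM in Non surgery, 116.3, 117 and 118.2 CPM in Luc and 133, 131.5 and 126.7 CPM in PC2 libraries. It was lowest in Non surgery and highest in PC2, with no overlap. Luc exceeded Non surgery 5.28-fold (2.40 ± 0.05, adjusted p = 2.46e-16). PC2 exceeded Luc 1.11-fold (0.15 ± 0.043, adjusted p = 0.0112), and without PC2 replicate 1 it no longer passed (0.14 ± 0.051, adjusted p = 0.0514). Exons of Mtx1 share 6.59% of the exon bases of Thbs3, and reads there may not have been counted for either gene.

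Tenascin C is a large hexameric glycoprotein of developing, injured and mechanically loaded connective tissue. Tnc stood at 209.3, 219 and 204.4 CPM in Non surgery, 867.8, 860.9 and 882.6 CPM in Luc and 632.7, 620.9 and 617.3 CPM in PC2 libraries. Luc was the highest group, PC2 lay between, and no libraries of different groups overlapped. Tnc was 4.13-fold higher in Luc than in Non surgery (2.04 ± 0.032, adjusted p = 1.31e-17) and 1.4-fold lower in PC2 than in Luc (-0.48 ± 0.031, adjusted p = 6.76e-09).

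Periostin binds collagen I and tenascin C, is named for the periosteum and marks fibroblasts of remodelling tissue. Postn stood at 164.9, 157.5 and 152.7 CPM in Non surgery, 457.8, 449.8 and 448.1 CPM in Luc and 382.3, 369.7 and 380.8 CPM in PC2 libraries. The order was that of Tnc, with a narrower gap between Luc and PC2 and again no overlap. Postn rose 2.85-fold from Non surgery to Luc (1.51 ± 0.035, adjusted p = 9.26e-16). From Luc to PC2 it fell by 0.26 ± 0.034 on the log2 scale (adjusted p = 2.04e-05), which is 1.2-fold.

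CCN1 and CCN2 are small cysteine-rich proteins that bind integrins and heparan sulphate, and both genes are known as rapidly induced targets of serum, TGF-beta, stretch and the YAP and TEAD transcription factors. Ccn1 stood at 74.81, 77.06 and 70.77 CPM in Non surgery, 301.5, 296.8 and 283.1 CPM in Luc and 211.1, 214.7 and 212.2 CPM in PC2 libraries. Its groups did not overlap and Luc was the highest. Ccn1 was 3.96-fold higher in Luc than in Non surgery (1.98 ± 0.039, adjusted p = 1.5e-16) and 1.38-fold lower in PC2 than in Luc (-0.47 ± 0.037, adjusted p = 8.08e-08). Ccn2 stood at 187.6, 193.2 and 182.9 CPM in Non surgery, 342.5, 361.4 and 345.8 CPM in Luc and 330.9, 328.6 and 338 CPM in PC2 libraries. Both operated groups were above Non surgery, and the PC2 libraries lay just below those of Luc. Ccn2 was 1.86-fold higher in Luc (0.90 ± 0.034, adjusted p = 7.06e-13), the smallest rise of the 7 genes that rose. Between PC2 and Luc its log2 fold change was -0.07 ± 0.034 (adjusted p = 0.105), which does not show that the levels were equal. 

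Immediate-early genes, the class of rapidly induced genes to which Ccn1 is often counted, were listed beside it. All 9 of the 9 listed (Fos, Fosb, Jun, Junb, Egr1, Egr2, Ier2, Ier3 and Atf3) rose between Non surgery and Luc (31.1% of all genes did). Between Luc and PC2 all 9 fell (18.6% of all genes did). In PC2 8 of the 9 were still above Non surgery, as Ccn1 was, and Atf3 was below it (36.8 CPM in Non surgery, 63.9 CPM in Luc, 23.2 CPM in PC2). The sum of the 9 was 238 to 266 CPM in Non surgery, 2436 to 2549 CPM in Luc and 1209 to 1234 CPM in PC2 libraries. Their part in the level of Ccn1 was not tested.

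Ccn1 and Tnc had the most similar profiles of any pair among the 8. The root mean square difference of their log2 CPM, each centred on its own mean over 9 libraries, was 0.043, against 0.2 for Postn and Ccn1, the next pair, and 1.44 for Thbs1 and Thbs3, the least similar. Thbs2 and Thbs3 rose by about as much in Luc but went opposite ways in PC2. For these 4 genes the 250 bases before a RefSeq start (GRCm38.p6, gene strand, 5′ to 3′) are shown, with motif matches in capitals (a match on the other strand reads as its reverse complement).
Ccn1, chr3:145649986-145650235, minus strand: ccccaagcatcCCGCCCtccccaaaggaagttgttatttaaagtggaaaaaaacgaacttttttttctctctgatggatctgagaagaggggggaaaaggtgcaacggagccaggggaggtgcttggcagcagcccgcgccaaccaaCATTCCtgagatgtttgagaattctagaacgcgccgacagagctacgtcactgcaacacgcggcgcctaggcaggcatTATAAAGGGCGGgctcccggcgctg
Tnc, chr4:64047016-64047265, minus strand: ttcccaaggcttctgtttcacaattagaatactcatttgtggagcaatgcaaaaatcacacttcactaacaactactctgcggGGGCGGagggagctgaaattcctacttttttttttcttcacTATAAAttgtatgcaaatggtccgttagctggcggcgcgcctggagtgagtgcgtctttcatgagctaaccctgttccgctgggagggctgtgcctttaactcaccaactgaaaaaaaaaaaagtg
Thbs2, chr17:14694263-14694512, minus strand: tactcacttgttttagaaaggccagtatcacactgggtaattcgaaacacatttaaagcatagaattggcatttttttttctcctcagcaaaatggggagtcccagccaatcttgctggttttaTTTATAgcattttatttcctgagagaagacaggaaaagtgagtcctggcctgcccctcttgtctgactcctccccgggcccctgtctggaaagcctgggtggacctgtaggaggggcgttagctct
Thbs3, chr3:89214930-89215179, plus strand: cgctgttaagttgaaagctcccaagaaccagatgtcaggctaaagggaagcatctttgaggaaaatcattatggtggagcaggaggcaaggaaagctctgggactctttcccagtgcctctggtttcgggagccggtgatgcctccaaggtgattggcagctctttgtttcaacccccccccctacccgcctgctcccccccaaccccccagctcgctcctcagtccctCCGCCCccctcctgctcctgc
The RefSeq table held windows for 6 of the 8 genes (Thbs2, Thbs3, Tnc, Postn, Sparc and Ccn1), with 2 starts each for Tnc and Postn. The Tnc window shown is the one without annotated exon bases. The Sparc window (chr11:55420081-55420330) lies inside the annotated gene, with 238 of its 250 bases in annotated exons. The bases before the annotated start of Sparc were therefore not searched. Both strands were searched. The TEAD letters GGAATG were found in 1 of these 6 genes, Ccn1, at 103 to 98 bases before the start. That is 1 of the 8 windows of these genes, against 12.6% of all 32851 windows. The 2 Tnc windows overlap and hold the same matches. TATAAA, the core of the TATA box, was found in 4 of the 6 (Thbs2, Tnc, Postn and Ccn1). By window it was in 5 of the 8, against 12.4% of all windows. In Ccn1 it lay 25 to 20 bases before the start, directly followed by a GC box, and in Postn 26 to 21 before 1 start. In Tnc it lay 126 to 121 bases before the start shown and 205 to 200 before the other. In Thbs2 the match was on the other strand, 126 to 121 bases before the start. Only these exact letters were searched, and the Tnc window not shown holds the similar TATATAA near its end. The GC box GGGCGG was found in 3 of the 6 (Thbs3, Tnc and Ccn1), which is 4 of the 8 windows, against 32.7% of all windows. The AP-1 letters TGANTCA had no match in the 6 genes and were found in 6.75% of all windows. The cyclic AMP response element TGACGTCA had none either (1.55% of all windows), nor had the CArG box of SRF (1.47%). Ccn1 and Tnc thus shared TATAAA and a GC box, at different places, and of these 4 genes Ccn1 alone had the TEAD letters.

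The first comparison, Luc against Non surgery, sets operated joints with the control virus beside joints without surgery. Of the 8 genes, 7 rose and 1 (Thbs1) fell. At least 2-fold rises were seen in 6 of the 8 (Thbs2, Thbs3, Tnc, Ccn1, Sparc and Postn), against 9.43% of all genes; none fell by that much, against 6.32%. The median log2 fold change of the 8 was 1.93, and that of all genes was 0.025. The rises ordered as Thbs2, Thbs3, Tnc, Ccn1, Sparc, Postn and Ccn2. Operation and pool differ together between these groups. Virus and age may differ as well, since neither is given for the Non surgery mice. The parts of these cannot be told apart. Fast muscle markers fell in the same comparison (8 of 8, median -1.15), fibroblast markers rose (8 of 8, median 1.72) and chondrocyte markers rose (8 of 8, median 1.92). Their part in the differences of the 8 genes was not tested. With the 8 fast muscle markers and the mitochondrial genome transcripts left out of the scaling, the same 7 genes were called higher and Thbs1 lower. All other muscle genes stayed in the scaling, so this setting does not test the part of muscle.

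**Figure D2:**
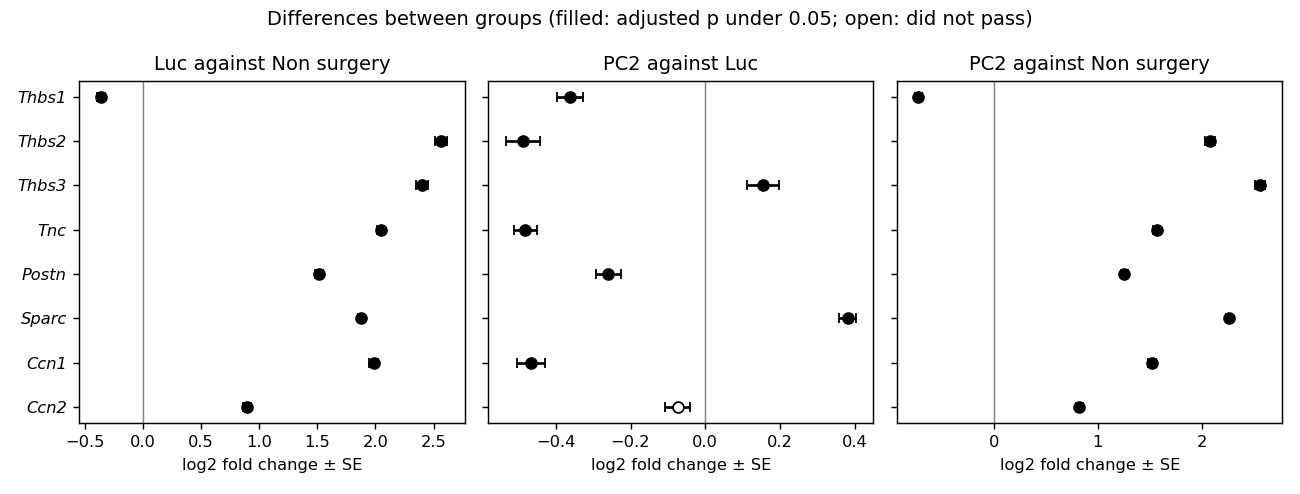
Log2 fold change ± SE of the 8 genes in the 3 comparisons (x axes differ in range). Filled points passed an adjusted p of 0.05 and the open point, Ccn2 in PC2 against Luc (-0.07), did not; Thbs1 is the only gene left of 0 in all 3 panels.

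The second comparison, PC2 against Luc, asked what changed with the PC2 virus in operated joints. Thbs2, Tnc, Ccn1, Thbs1 and Postn fell, by 0.49, 0.48, 0.47, 0.36 and 0.26 on the log2 scale, and Sparc and Thbs3 rose. That is 5 of 8 lower and 2 of 8 higher. None of the 8 changed 2-fold; 2% of all genes fell and 1.3% rose by that much. The median of the 8 was -0.31, against 0.008 for all genes. Of the 7 genes that had risen in Luc, 4 (Thbs2, Tnc, Ccn1 and Postn) were lower in PC2 than in Luc yet remained above Non surgery. Thbs1 moved further from Non surgery. In the same libraries the fibroblast markers were split (4 higher, 3 lower, 1 below the threshold), all 8 chondrocyte markers rose (median 0.82) and 7 of 8 endothelial markers fell (median -0.25). The endothelial sum was 378 to 396 CPM in Non surgery libraries, 495 to 505 in Luc libraries and 405 to 413 in PC2. The part of these tissues in the differences was not tested.

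PC2 was also compared with Non surgery directly, and this comparison shares the Non surgery libraries with the first. Sparc was 4.77-fold, Thbs3 5.87-fold, Thbs2 4.22-fold, Tnc 2.96-fold, Ccn1 2.87-fold, Postn 2.38-fold and Ccn2 1.77-fold higher, and Thbs1 was 1.65-fold lower (-0.72 ± 0.035, adjusted p = 1.48e-11). All 8 passed, 7 higher against 31.5% of all genes and 1 lower against 31.2%. At least 2-fold rises were seen in 6, against 9.83% of all genes, and no 2-fold fall, against 6.53%. Side by side, the log2 differences from Non surgery in Luc and in PC2 were 1.87 and 2.25 for Sparc, 2.40 and 2.55 for Thbs3, 2.57 and 2.08 for Thbs2, 2.04 and 1.56 for Tnc and 1.98 and 1.52 for Ccn1. Thbs2 thus led in Luc and Thbs3 in PC2.

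Levels of different genes were compared per length, as CPM per kilobase of exon. In Non surgery Sparc was at 442.9 ± 16.2 (SD, n = 3), followed by Thbs1 (87.6 ± 3.5), Ccn2 (65.7 ± 1.8), Ccn1 (36.8 ± 1.58), Tnc (27.1 ± 0.952), Postn (18.2 ± 0.707), Thbs2 (7.45 ± 0.603) and Thbs3 (4.6 ± 0.338). In Luc the order was Sparc (1623 ± 12.3), Ccn1 (145.5 ± 4.75), Ccn2 (122.3 ± 3.54), Tnc (112 ± 1.43), Thbs1 (68.1 ± 0.539), Postn (51.9 ± 0.592), Thbs2 (44.1 ± 0.84) and Thbs3 (24.3 ± 0.199). In PC2 it was Sparc (2113 ± 22.4), Ccn2 (116.2 ± 1.71), Ccn1 (105.3 ± 0.91), Tnc (80.2 ± 1.04), Thbs1 (53.1 ± 1.37), Postn (43.4 ± 0.792), Thbs2 (31.5 ± 1.03) and Thbs3 (27 ± 0.677). Thbs1 was second only to Sparc in Non surgery and held rank 5 in both operated groups, and neighbours in these orders did not overlap between libraries. The place of Ccn2 depends on how its reads were counted, since exons of the antisense gene Gm15270 (1 to 19 counts per library) share 23.2% of its exon bases. With shared bases left out of the length, a setting added after seeing the data, Ccn2 rose to 159.3 ± 4.61 in Luc, above Ccn1, and in Non surgery to 85.6 ± 2.35, overlapping Thbs1 (90.7 ± 3.62).

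**Figure D3:**
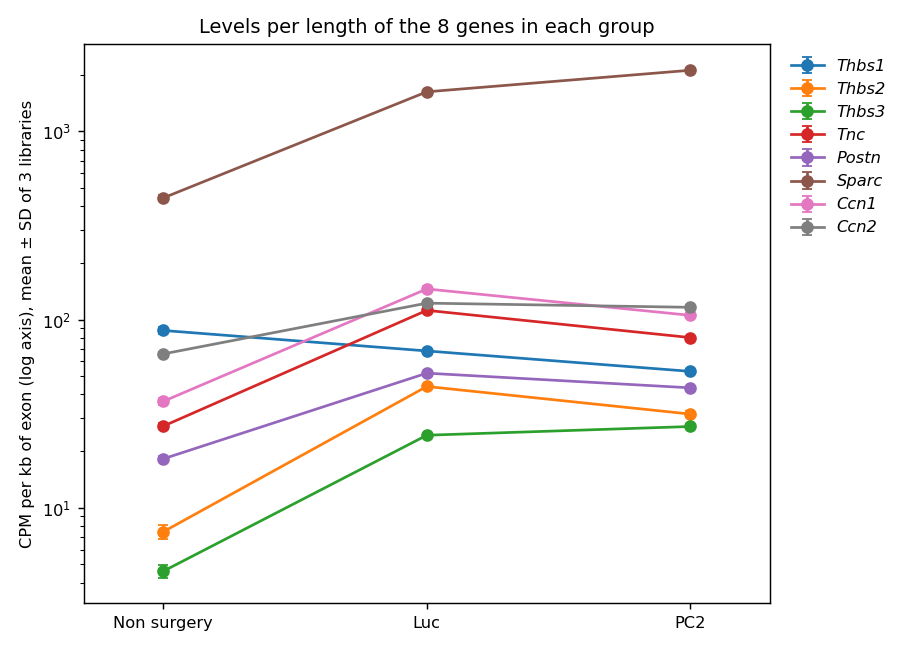
Level per length (CPM per kb of exon, log axis) of the 8 genes in each group, mean ± SD of 3 libraries; lines join the means of 1 gene and are no time course. Sparc lies above all others in each group, and Thbs1 goes from 87.6 in Non surgery to 53.1 in PC2 while the others go up from Non surgery to Luc.

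The make-up of the gene families around these genes shifted accordingly (families were assembled after the values were seen). Among the 5 thrombospondins, Thbs1 made up 30.7% ± 2.51 (SD, n = 3) of the summed level per length in Non surgery libraries, 8.36% ± 0.057 in Luc libraries and 5.62% ± 0.208 in PC2. Comp, a pentameric thrombospondin of cartilage and tendon, went from 35.1% ± 2.21 to 60.7% ± 0.211 and 71.1% ± 0.614. Thbs2 held 2.61%, 5.41% and 3.33%, and Thbs3 1.61%, 2.98% and 2.86%. Thbs4, a thrombospondin of tendon and muscle, held 30% ± 0.427, 22.5% ± 0.124 and 17.1% ± 0.191. Joints without surgery thus had Thbs1, Thbs4 and Comp at similar shares, and operated joints had mostly Comp. Tnc made up 56.2% ± 0.735 of the 4 tenascins in Non surgery libraries, 67.1% ± 0.421 in Luc libraries and 61.8% ± 1.06 in PC2, while the share of Tnxb, the tenascin of loose connective tissue, was 21.3%, 10.2% and 20%. Among the 6 CCN genes, Ccn1 went from 28.8% ± 0.313 to 43% ± 0.791 and 37.1% ± 0.445, and Ccn2 from 51.5% ± 0.97 to 36.1% ± 0.826 and 40.9% ± 0.346. These shares use the full exon lengths. With bases shared with another gene left out of the length, Ccn2 lay above Ccn1 in Luc (159.3 and 145.5 CPM per kb). Sparc made up 82.9%, 88.3% and 91% of its family of 8 genes.

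**Figure D4:**
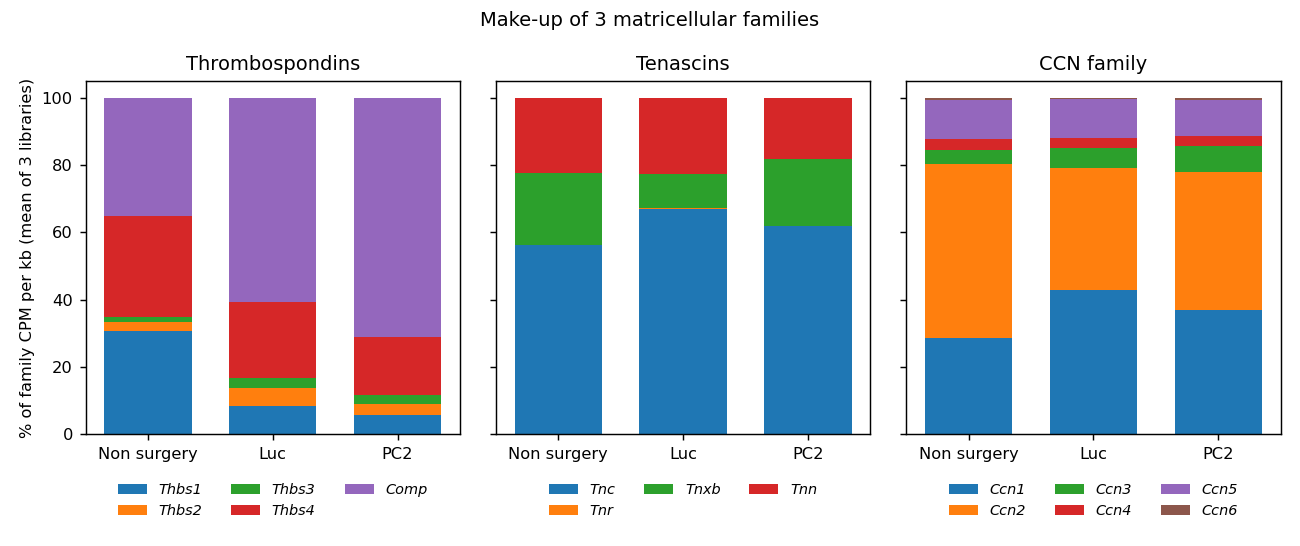
Share of each gene in the summed CPM per kb of its family, in percent, mean of 3 libraries per group. In the thrombospondins the share of Thbs1 is 30.7% in Non surgery and 5.62% in PC2, and that of Comp 35.1% and 71.1%. Lengths include exon bases shared with other genes, which are 23.2% of those of Ccn2.

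Other matricellular genes were counted from a list of names. Of 18 listed, 16 were tested (Spock1 and Spock3 had at most 11 counts), and from Non surgery to Luc 14 rose, 1 fell and 1 did not pass. Their median log2 fold change was 1.24, that of all genes 0.025, of which 31.1% rose and 27.7% fell. Tnr, a tenascin best known from the nervous system, rose 6.09-fold from 0.635 CPM, and Comp rose 4.92-fold from 298.5 to 1470 CPM. Ccn3, which is known to oppose CCN2 in several settings, rose 3.78-fold and Tnn, a tenascin of the periosteum, 3.47-fold. Spock2, a proteoglycan of the SPARC family, fell by 1.69 on the log2 scale, from 29.3 to 9.08 CPM. Between Luc and PC2, 8 of the 16 fell (18.6% of all genes did), 7 rose (16.1%) and 1 did not pass (median -0.11). Tnr went from 3.88 to 1.94 CPM, Tnn fell by 0.68 and Spp1 (osteopontin) by 0.62 on the log2 scale, and Ccn6 rose by 0.65 at a low level (1.39 to 2.2 CPM). Tenascins therefore went both ways, as Tnxb was 1.52-fold higher in PC2 than in Luc (chosen after its values were seen), while Tnc, Tnn and Tnr were lower.

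Receptors were taken from a list of 16 genes whose products bind these proteins: integrin subunits, syndecans, scavenger receptors, Lrp1, Cd47 and Calr. Between Non surgery and Luc 10 rose (31.1% of all genes did) and 5 fell (27.7% of all genes). The median was 0.47, and Itga8 missed the threshold. The syndecans Sdc1 and Sdc4, heparan sulphate proteoglycans, rose 2.62-fold and 2.3-fold. The integrin alpha subunits Itgav and Itga5 rose 2.12-fold and 1.92-fold. Each pairs with a beta subunit, not with the other, into receptors for proteins such as CCN proteins, periostin and fibronectin. Itgb3 and Cd36, the latter a receptor of thrombospondin 1 on endothelium, platelets, muscle and fat cells, fell 1.9-fold and 1.83-fold, and Cd47, another thrombospondin receptor, fell by 0.27 on the log2 scale. Thbs1 and these 3 receptors were all lower in Luc than in Non surgery, but 10 of the 16 listed rose. Lrp1, which also binds thrombospondin 1, was among those (1.89-fold), and Itga6 fell (-0.52). Lrp1 and Itga6 were picked here after their values were seen. Between Luc and PC2 the median was -0.04: 6 of the 16 fell (18.6% of all genes did), 2 rose (16.1%) and 8 missed the threshold. Itgav fell 1.55-fold, Itga9, a receptor of tenascin C, by 0.29 and Itgb3 by 0.27 on the log2 scale, and the 2 that rose were Calr (0.09) and Cd47 (0.11).

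TGF-beta induces Ccn2, Postn and Tnc in many cells and is itself activated by thrombospondin 1, so its ligands, latent complex and receptors were counted too. All 11 listed genes rose between Non surgery and Luc (31.1% of all genes did), with a median of 0.73. The largest rises were those of the latent TGF-beta binding protein Ltbp3 (2.7-fold) and the ligand Tgfb3 (2.41-fold). Between Luc and PC2 the median was -0.19, and 6 fell (18.6% of all genes did), 2 rose (16.1%) and 3 missed the threshold. The largest changes were those of Lrrc32 (-0.54), which presents latent TGF-beta on cell surfaces, Ltbp2 (-0.46), Tgfbr1 (-0.37) and Ltbp1 (-0.30).

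YAP, TAZ, TEAD and SRF factors are known regulators of Ccn1 and Ccn2. Of 14 genes listed for them, 7 rose and 5 fell between Non surgery and Luc (31.1% and 27.7% of all genes did). Their median was 0.25, and 2 missed the threshold. Wwtr1, which encodes TAZ, rose 2.5-fold and Tead2 2.23-fold, Tead2 at a low level (3.87 to 8.64 CPM). Tead1, the most abundant TEAD gene listed, fell 1.54-fold, from 146.7 to 95 CPM. Tead4 fell 1.44-fold and Tead3 did not pass. Tead1, Tead3 and Tead4 were added to this comparison after their values were seen. Amotl2, a known YAP target, rose by 0.80, and Ankrd1, known as a YAP target and as a stress protein of muscle, fell 1.86-fold. Between Luc and PC2 the median was -0.02: 4 fell (18.6% of all genes did), 3 rose (16.1% of all genes) and 7 missed the threshold. Ankrd1 fell 3.24-fold, from 24.8 to 7.66 CPM, and Lats1 by 0.25 on the log2 scale, while Tead4 and Tead3 were 0.65 and 0.29 higher. Of these YAP targets, Amotl2 rose in Luc and fell by 0.22 on the log2 scale in PC2, the directions of Ccn1, and Ankrd1 was lower at each step. Fast muscle markers, which fell in Luc, were higher in PC2 than in Luc (7 of 8, median 0.21).

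**Figure D5:**
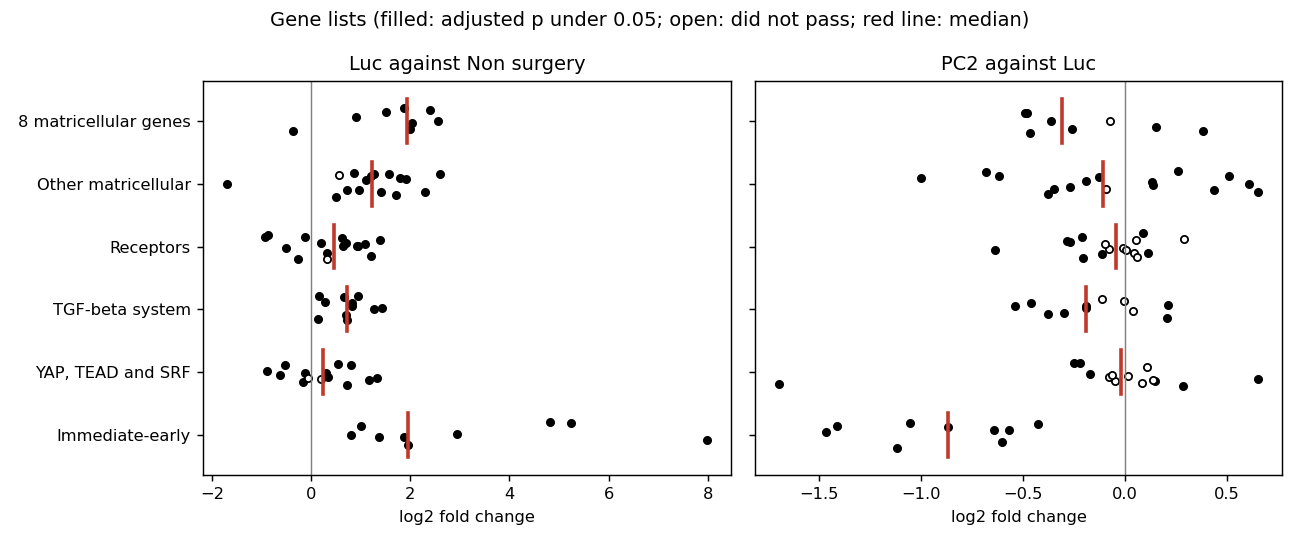
Log2 fold change of each tested gene of 6 lists, in Luc against Non surgery and in PC2 against Luc (x axes differ in range). Filled points passed an adjusted p of 0.05, open points did not, and the red line is the list's median: 1.93 and -0.31 for the 8 genes, and 0.47 and -0.04 for the receptors.

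The genes most like each of the 8 were picked by the same root mean square difference of centred log2 CPM over the 9 libraries, among 11492 named genes with a mean of at least 5 CPM. Group differences between 3 pools dominate this measure. Nearest to Sparc were Col1a1 (0.038), a chain of the main bone and tendon collagen, and Prelp (0.045), a small leucine-rich matrix protein. Mmp2, a matrix metalloproteinase, and Tm4sf1, a membrane protein, were the nearest to both Ccn1 (0.046 and 0.051) and Tnc (0.058 and 0.041). Nearest to Thbs2 were Abi3bp (0.051) and the collagen-binding receptor Antxr1 (0.054), and to Postn Frmd6 (0.044) and C1qtnf1 (0.053). Thbs3 was nearest to Cdon (0.068) and Pdgfrl (0.085), the loosest matches of the 8 genes. Ccn2 was nearest to Lrp1 (0.033), an endocytic receptor known to bind both CCN2 and thrombospondin 1, and to the semaphorin receptor Plxnd1 (0.033). Thbs1 was nearest to Ckap5 (0.032), a microtubule protein, and Flt1 (0.034), a VEGF receptor.

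In the annotation the 8 genes lie apart from each other except for 3 on chromosome 3. Thbs3 (chr3:89215180-89226837), Postn (chr3:54361109-54391037) and Ccn1 (chr3:145646976-145649981) share that chromosome at great distance. Thbs1 lies at chr2:118111876-118127133, Thbs2 at chr17:14665500-14694235, Tnc at chr4:63959785-64047015, Sparc at chr11:55394500-55423183 and Ccn2 at chr10:24595442-24598683. Counts were summed over all exons of a gene, so isoforms such as the splice forms of Tnc and Postn cannot be told apart. Exons of other genes share 3.42% of the exon bases of Thbs1 and 2.26% of those of Tnc, and none of those of Thbs2, Postn, Sparc and Ccn1.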

How the data were processed

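Per the labels' protocols, TRIzol was used for extraction and a NEBNext Ultra kit, which does not mark strand, for library construction. The authors deposited unnormalized counts by Ensembl gene ID in a separate table for each library. HISAT2, HTSeq, DESeq2 and the mm10 build are named in the submitters' processing notes; their versions, the annotation release and the counting options are not given in the sources used here. HTSeq's 5 summary lines (reads in no counted feature 7.29% to 9.25%, ambiguous reads 5.72% to 6.65%) stayed out of library sizes and tests. Where counting ignores strand, reads in exons of overlapping genes are left out, which lowers the level of Ccn2 most.

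Symbols, positions and exon lengths were read from GENCODE M21 on GRCm38 (mm10); 53274 of the 53379 IDs matched. Counts were tested with edgeR 4.0.16 in R 4.3.3 in 1 quasi-likelihood fit of all 9 libraries with a group factor, TMM factors and filterByExpr (minimum count 10). Tests were two-sided with Benjamini-Hochberg adjustment over 17478 genes, and "rose" and "fell" mean an adjusted p under 0.05. SE was obtained by dividing the absolute log2 fold change by the root of its F statistic. The fit was tested on simulated data. A check of the group labels against a target gene is not reported here. Pairs of libraries of a group differed by more than counting noise (chi-square per degree of freedom 3.94 to 8.67). All 8 genes are named, as are up to 4 called genes per list and comparison, taken by size of change, list members that went against the rest, and the 2 genes nearest to each in pattern. The genes and lists were chosen with earlier results of these data known. Alternatives were other normalizations, DESeq2 1.42.0, no filter, 2 groups per fit, a replicate block and leaving out each library. A further alternative was scaling without the listed fast muscle markers and the mitochondrial genome transcripts.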

Additional observations from a re-analysis of the deposited data

How the results depend on the processing

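Across 13 alternatives per comparison, the fold changes of the 8 genes kept their direction in all 312 values, and 311 kept their side of the threshold; the exception was Thbs3 in PC2 against Luc without PC2 replicate 1 (0.14, adjusted p = 0.0514). Scaling by library size alone moved the median log2 fold change of all genes from 0.025 to 0.185 in Luc against Non surgery and from 0.01 to 0.168 in PC2 against Non surgery. The share of calls that were higher went from 52.8% to 70.1% and from 50.3% to 66.9%. The replicate numbers do not pair the libraries: deviations of same-numbered libraries correlated between -0.17 and 0.16. With the replicate block 10327, 6192 and 11019 genes were called in Luc against Non surgery, PC2 against Luc and PC2 against Non surgery, beside 10279, 6058 and 10952 without it, and no call among the 8 changed. Leaving out 1 library gave 9552 to 9880, 4921 to 5328 and 10239 to 10672 calls. With shared exon bases left out of the lengths, an alternative chosen after seeing the data, the level per kb of Ccn1 over that of Ccn2 went from 0.559 to 0.429 in Non surgery, from 1.19 to 0.914 in Luc and from 0.907 to 0.696 in PC2. With 1 pool per group, no alternative bears on differences between mice.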
